A study of Mus musculus with 5 samples.

Results

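Pre-mRNA splicing is steered by families of RNA-binding proteins, and the mRNAs of a pair of these families were followed through a knockdown of the RNA helicase UPF1 in mouse neuroblastoma cells. The genes were chosen by name: every protein-coding gene whose symbol begins with Hnrnp, or with Srsf and a digit, or is Tra2a or Tra2b. This gave 33 of the 55573 genes in the count table, 13 in the SR/Tra2 subgroup and 20 in the hnRNP subgroup. Of these, 32 had enough reads to be tested. The exception was Srsf12, which had 2 and 6 reads in the control libraries and 2, 4 and 2 reads in the knockdown libraries.

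SR proteins carry an arginine- and serine-rich domain beside their RNA-binding domains and, in general, promote the use of exons whose enhancers they bind. TRA2A and TRA2B are SR-like activators that bind purine-rich exonic enhancers. The heterogeneous nuclear ribonucleoproteins (hnRNPs) coat nascent transcripts, and many of them repress exons, often in competition with SR proteins. Nonsense-mediated mRNA decay (NMD) is a cytoplasmic pathway that requires UPF1 and degrades mRNAs whose stop codon lies well upstream of the last exon junction. Many genes of both families are known to control their own level by splicing in a "poison" exon or otherwise altering the mRNA so that it carries such a stop codon. The productive and the NMD-prone mRNA of one gene are counted together in the values below.

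Cells of the mouse neuroblastoma line Neuro-2A (N2A) were transfected with 60 pmol of Silencer Negative Control #1 siRNA (siCtl) or of an Upf1 siRNA (siUpf1, UPF1-KD) using TransIT-X2. Poly(A) RNA was sequenced in replicates 1 and 3 of siCtl (n = 2) and replicates 1 to 3 of siUpf1 (n = 3), with 20402205 to 27717594 assigned reads per library. The study describes its blots of such cells as coming from independent experiments but does not say so of the RNA-seq libraries, so p-values measure only the spread between these libraries. The labels give no difference between the groups other than the siRNA.

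Upf1 mRNA itself had 5217 and 5243 normalised read counts in siCtl and 2403, 2496 and 2449 in siUpf1, which is 46.8% of the siCtl mean (log2 fold change -1.10, SE 0.051, DESeq2 adjusted p = 7.09e-101). At the RNA level the knockdown was thus partial. Of 13 neuroblastoma markers, 10 had at least 100 reads in every library, whereas Nefl and Nefm had between 0 and 4. The summed level of the 13 was 2226 to 2272 CPM (counts scaled to library size) in siCtl and 2267 to 2359 CPM in siUpf1, with 6 of the 11 tested markers higher and 2 lower. The summed markers of fibroblasts, endothelial cells, astrocytes and macrophages were each at most 12.1 CPM in siCtl and 10.4 CPM in siUpf1, were lower in every siUpf1 library than in either siCtl library, and included Lum, Slc1a3 and Kdr with no read. Single markers did not all fall. Of 3 tested endothelial markers, 1 was higher and 1 lower. Tek had 57 and 57 reads in siCtl and 103, 81 and 100 in siUpf1, whereas Pecam1 had 192 and 227, and then 130, 96 and 143. Of 3 tested fibroblast and 2 tested astrocyte markers, 1 each was lower and 0 higher, and the 1 tested macrophage marker was not called. The part of these markers in the results was not tested. In bulk RNA, a smaller number of cells of one kind and less RNA per cell cannot be told apart.

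Annotated NMD isoforms were frequent in these genes, and the sequences around their stop codons show where the reading frame ends. In GENCODE M21, which describes the GRCm38 build of the files, 21 of the 32 tested genes (65.6%) had at least 1 transcript annotated as an NMD target, compared with 28.5% of 12729 tested protein-coding genes and 33.2% of the 5679 whose mean normalised count was at least 1000. The share was 11 of 12 for SR/Tra2 genes, the exception being Srsf10, and 10 of 20 for hnRNP genes. The 32 genes also had more annotated transcripts of any kind, a median of 7.5 per gene, beside 5 and 6 in the 2 larger sets. The part of this in the higher share was not tested. In 12 genes, 7 SR/Tra2 and 5 hnRNP, an internal exon of an NMD isoform overlapped no exon of a protein-coding isoform. Isoforms of other types, such as those that retain an intron, were not compared. In 9 of the 12 genes the stop codon of an NMD isoform lay inside such an exon. The stop codons of both Tra2 genes, of the close relatives Srsf3 and Srsf7, and of the close relatives Hnrnpl and Hnrnpll are printed with 12 bases on either side, on the mRNA strand and with the stop codon in capitals.
Tra2b, exon of 276 nt at chr16:22258986-22259261, minus strand: ctcaggaataagTGAagctgaaatttg
Tra2a, exon of 306 nt at chr6:49252803-49253108, minus strand: agattggtcagaTAGaagcacttgaat
Srsf3, exon of 456 nt at chr17:29039454-29039909, plus strand: ctcaccaccctcTGAatctgcattagc
Srsf7, exon of 460 nt at chr17:80204622-80205081, minus strand: agtcagtcgcctTGAttcagaatgtca
Hnrnpl, exon of 70 nt at chr7:28817335-28817404, plus strand: ctaactcactgtTGAagcgtccaatgg
Hnrnpll, exon of 83 nt at chr17:80044940-80045022, minus strand: agaagcccacttTGAaaatgtgttgct

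These stop codons lay between 548 nt (Srsf3) and 1015 nt (Tra2b) upstream of the last exon junction of their transcript. The paired genes carried different stop codons in the Tra2 pair and the same one, TGA, in the other two pairs. The mRNAs that end at these stop codons were not measured separately, since the counts were made per gene.

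Most SR/Tra2 mRNAs were moderately lower after UPF1-KD. Of the 12 tested, 8 fell, 1 rose and 3 did not pass the test (DESeq2, adjusted p under 0.05). Of all 15191 genes tested, 44.9% were called, 22.0% higher and 22.9% lower. Among the 5679 protein-coding genes whose mean normalised count was at least 1000, a range that held all 32 tested members, 65.2% were called, 30.6% higher and 34.6% lower. The median log2 fold change of the SR/Tra2 genes was -0.17, with a range from -0.49 to 0.20, beside a median of -0.02 for those 5679 genes and -0.00 for all genes tested. Both siCtl libraries lay on one side of all 3 siUpf1 libraries in 12 of 12 SR/Tra2 genes, which was so for 69.4% of all genes tested and 80.6% of the protein-coding genes with high counts.

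**Figure D1:**
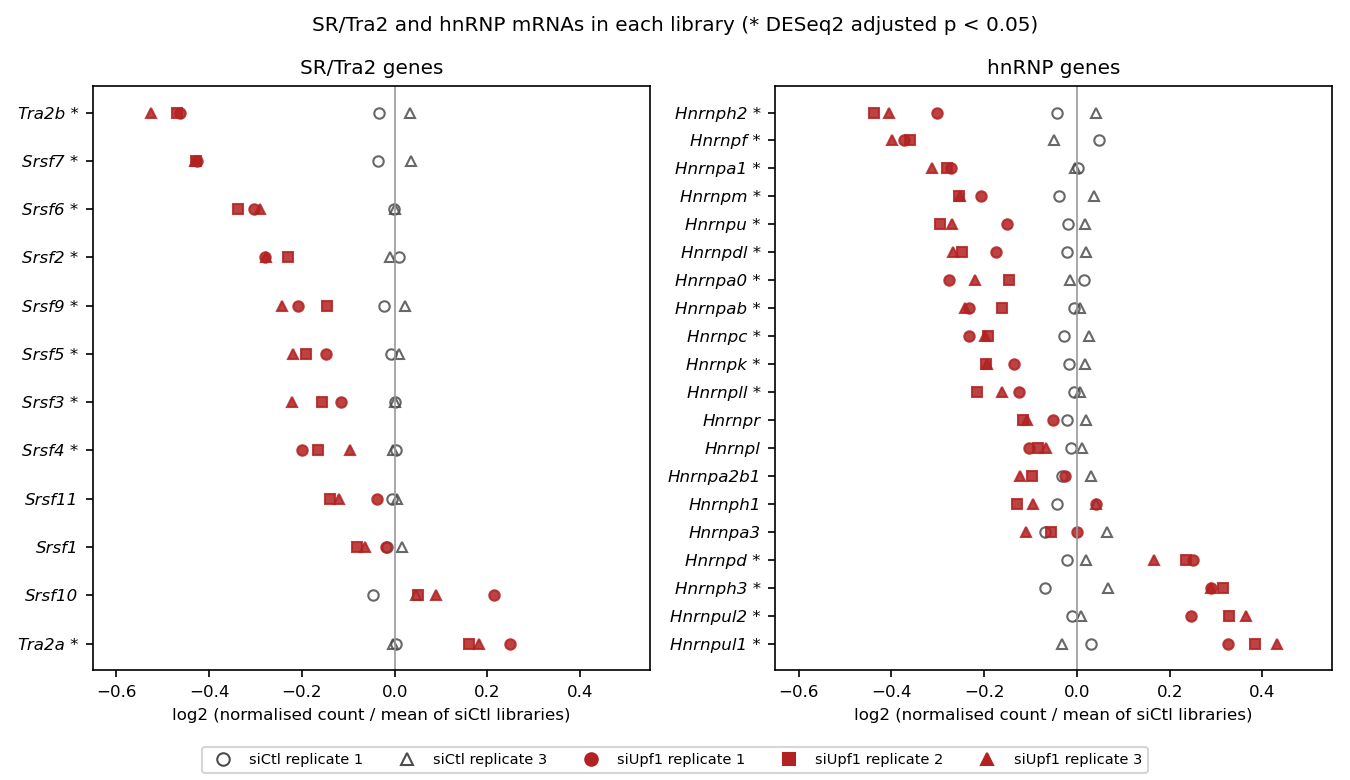
Each point is 1 library and gives the log2 ratio of a gene's normalised count to the mean of the siCtl libraries (x axis), with SR/Tra2 genes in the left panel and hnRNP genes in the right panel, each ordered by fold change. Open symbols are siCtl, filled symbols are siUpf1, and an asterisk marks a DESeq2 adjusted p under 0.05. Most filled symbols lie left of the open ones, and Tra2a, Hnrnpd, Hnrnph3, Hnrnpul2 and Hnrnpul1 are the called genes on the right.

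Tra2b (chromosome 16, 22244549 to 22266005) had the lowest fold change of the tested genes. It had 3732 and 3906 normalised counts in siCtl and 2771, 2759 and 2652 in siUpf1. The siUpf1 mean was 71.4% of the siCtl mean, and the gap between the groups was several times the range within either (log2 fold change -0.49, SE 0.054, DESeq2 adjusted p = 4.64e-18). Its paralogue Tra2a (chromosome 6, 49243924 to 49264033), which encodes a protein with a closely similar RNA-binding domain, was the 1 SR/Tra2 gene that rose. Tra2a had 4049 and 4029 normalised counts in siCtl and 4800, 4513 and 4581 in siUpf1. Every siUpf1 library was above both siCtl libraries (log2 fold change 0.20, SE 0.050, DESeq2 adjusted p = 0.000277).

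Srsf7 (chromosome 17, 80200080 to 80207307) encodes an SR protein that also takes part in mRNA export. It had 6650 and 6988 normalised counts in siCtl and 5076, 5064 and 5058 in siUpf1, so that the 3 siUpf1 libraries were nearly equal (log2 fold change -0.43, SE 0.046, DESeq2 adjusted p = 1.18e-19). Srsf3, the smallest SR protein and a relative of SRSF7, had 6429 and 6427 in siCtl and 5934, 5766 and 5517 in siUpf1. Its groups did not overlap either, but the decrease was smaller (log2 fold change -0.16, SE 0.047, DESeq2 adjusted p = 0.00182).

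SRSF4, SRSF5 and SRSF6 form another branch of the family with a pair of RNA-recognition motifs. Srsf6 had 8949 and 8956 normalised counts in siCtl and 7257, 7081 and 7316 in siUpf1 (log2 fold change -0.31, SE 0.042, DESeq2 adjusted p = 1.06e-12). Srsf4 had 3769 and 3752 in siCtl and 3274, 3354 and 3520 in siUpf1 (log2 fold change -0.15, SE 0.053, DESeq2 adjusted p = 0.0114). Srsf5 fell by 0.19 on the log2 scale, close to Srsf4 (DESeq2 adjusted p = 0.000154). All 3 genes of this branch were thus lower, Srsf6 the most.

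Of the remaining called SR genes, Srsf2, which encodes the nuclear-retained speckle protein SC35, went from a mean of 10090 ± 95.7 in siCtl (SD, n = 2) to 8415 ± 162 in siUpf1 (SD, n = 3), and Srsf9 from 2102 ± 47.9 to 1832 ± 62.3. Their log2 fold changes were -0.26 and -0.20. The 3 genes that did not pass the test were Srsf1, the founding member of the family, with a log2 fold change of -0.05 (DESeq2 adjusted p = 0.303), Srsf11 with -0.10 (adjusted p = 0.0846) and Srsf10 with 0.12 (adjusted p = 0.0607). SRSF10 differs from the other SR proteins in acting as a general repressor when dephosphorylated. In Srsf10 the groups were barely apart, since siCtl replicate 3 had 6806 normalised counts and siUpf1 replicate 2 had 6824.

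Some of the smaller calls changed with a library or a setting. The call of Srsf9 was lost without siCtl replicate 3 (DESeq2 adjusted p = 0.125) or without siUpf1 replicate 3 (0.0557) and when the trend of fold changes with length and GC of the transcript was taken out (0.102), over a range of 0.00308 to 0.125 across 12 alternatives and with a log2 fold change between -0.23 and -0.11, and that of Srsf5 was lost with the trend removed (0.107, the highest of a range from 0.000102). The call of Srsf4 was lost without siCtl replicate 1 (adjusted p = 0.118), without siCtl replicate 3 (0.106), without siUpf1 replicate 1 (0.0656) and with total-count scaling (0.0566), over a range of 0.00691 to 0.268, while its log2 fold change stayed between -0.18 and -0.13.

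The hnRNP mRNAs were lower to a similar degree, with a small set that rose. Of the 20 tested, 11 fell, 4 rose and 5 did not pass the test, so that 75.0% were called, the same share as of the tested SR/Tra2 genes and beside 65.2% of the protein-coding genes with high counts. The median log2 fold change was -0.17 and the range was from -0.38 to 0.38. The groups did not overlap in 17 of the 20 genes, beside 80.6% of the protein-coding genes with high counts. None of the 32 SR/Tra2 and hnRNP genes was called with a log2 fold change of at least 0.5 in size, which 15.7% of the protein-coding genes with high counts were. The curves of cumulative fraction show both subgroups within a narrow band below 0, with a step on the right for the genes that rose.

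**Figure D2:**
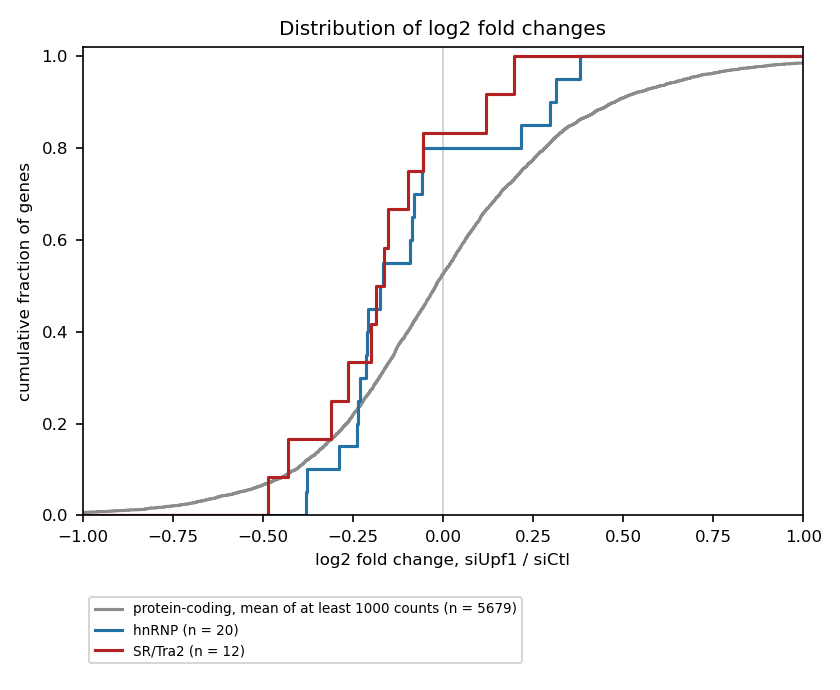
The y axis gives the cumulative fraction of genes and the x axis the DESeq2 log2 fold change of siUpf1 over siCtl, for the 12 SR/Tra2 genes, the 20 hnRNP genes and the 5679 protein-coding genes whose mean normalised count was at least 1000, drawn between -1 and 1. Of the 32 genes 26 lie below 0, and both subgroup curves stay within -0.49 and 0.38 while the grey curve extends past both.

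The hnRNP H/F proteins bind runs of guanines. Hnrnph2 (chromosome X, 134601179 to 134607060) had 1919 and 2033 normalised counts in siCtl and 1604, 1458 and 1493 in siUpf1 (log2 fold change -0.38, SE 0.069, DESeq2 adjusted p = 2.69e-07). Hnrnpf (chromosome 6, 117900324 to 117925622) had 2491 and 2329 in siCtl and 1861, 1878 and 1828 in siUpf1 (log2 fold change -0.38, SE 0.062, DESeq2 adjusted p = 8.03e-09). Hnrnph3, the shorter member of this family, moved the other way, with 1651 and 1814 in siCtl and 2118, 2155 and 2116 in siUpf1 (log2 fold change 0.30, SE 0.065, DESeq2 adjusted p = 2.32e-05). Hnrnph1, whose protein is the closest relative of hnRNP H2 and whose mRNA was the most abundant of the 4, had a log2 fold change of -0.06 and overlapping groups (DESeq2 adjusted p = 0.377). The 4 genes of this family thus fell, rose or did not pass the test with no shared direction.

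The hnRNP A/B proteins are abundant repressors of exon inclusion. Hnrnpa1 (chromosome 15, 103240432 to 103246692), the best-known antagonist of SR proteins, had 22484 and 22383 normalised counts in siCtl and 18577, 18477 and 18064 in siUpf1. The siUpf1 mean was 81.9% of the siCtl mean and the groups were far apart (log2 fold change -0.29, SE 0.036, DESeq2 adjusted p = 3.34e-14). Hnrnpa0 fell by 0.21 on the log2 scale. Hnrnpab, which bears the name of this family but is paired below with its relative Hnrnpd, also fell by 0.21. Hnrnpa2b1 and Hnrnpa3 had log2 fold changes of -0.08 and -0.05, and their groups overlapped (DESeq2 adjusted p = 0.1 and 0.403). Hnrnpa1 has many processed pseudogenes with near-identical sequence, so its count is uncertain where reads match more than 1 copy.

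Among the D-type hnRNPs, Hnrnpd, which encodes the AU-rich element binding protein AUF1, rose from a mean of 4870 ± 96.8 (SD, n = 2) to 5664 ± 172 (SD, n = 3), a log2 fold change of 0.22 (DESeq2 adjusted p = 2.84e-05). Its relative Hnrnpdl fell from 9547 ± 190 to 8146 ± 282, a log2 fold change of -0.23 (DESeq2 adjusted p = 1.78e-06). The 2 genes therefore changed in opposite directions. With the length and GC trend taken out, the log2 fold changes were 0.12 for Hnrnpd and -0.18 for Hnrnpdl.

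The largest increases were in the 2 genes for U-like hnRNPs, nuclear proteins that have been linked to the DNA damage response. Hnrnpul1 (chromosome 7, 25721165 to 25754757) had 3916 and 3751 normalised counts in siCtl and 4802, 5005 and 5169 in siUpf1, a mean of 130% of siCtl (log2 fold change 0.38, SE 0.052, DESeq2 adjusted p = 2.13e-12). Hnrnpul2 (chromosome 19, 8820010 to 8834143) had 3219 and 3262 in siCtl and 3844, 4065 and 4173 in siUpf1 (log2 fold change 0.31, SE 0.054, DESeq2 adjusted p = 4.89e-08). In both genes every siUpf1 library was above both siCtl libraries. Hnrnpu itself, which encodes the nuclear scaffold protein SAF-A, was lower, with a mean of 30790 ± 556 in siCtl and 26128 ± 1428 in siUpf1 (log2 fold change -0.24, DESeq2 adjusted p = 1.36e-06).

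The other called hnRNP genes were all lower. Hnrnpm fell by 0.24 on the log2 scale, Hnrnpc, whose protein binds uridine tracts, by 0.21, and Hnrnpk, whose KH domains bind cytosine-rich RNA, by 0.17. Hnrnpll, which encodes a protein known for the splicing of Ptprc in lymphocytes, fell by 0.17 (DESeq2 adjusted p = 0.0113), while its CA-repeat-binding relative Hnrnpl had a log2 fold change of -0.08 (DESeq2 adjusted p = 0.0766) and Hnrnpr one of -0.09 (DESeq2 adjusted p = 0.0869).

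The call of Hnrnpll was lost without siCtl replicate 1 (DESeq2 adjusted p = 0.0945), siCtl replicate 3 (0.132), siUpf1 replicate 2 (0.0655) or siUpf1 replicate 3 (0.0525) and with total-count scaling (0.0661), over a range of 0.00826 to 0.324 across the 12 alternatives. In GENCODE M21 the exons of Hnrnpm share 1169 of 7956 nt with March2, and those of Hnrnpul2 share 360 of 7108 nt with AC129217.1, on the same strand, so reads from those bases cannot be assigned to 1 gene.

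Within the siUpf1 group, replicate 1 often had the highest value. It was the highest of the 3 siUpf1 libraries in 20 of the 32 genes (62.5%), 8 of 12 SR/Tra2 and 12 of 20 hnRNP genes, compared with 31.2% of the 5679 protein-coding genes with high counts. Replicate 2 was the highest in 7 and replicate 3 in 5. Without siUpf1 replicate 1, 4 genes that had not passed the test were called as lower: Srsf11 (DESeq2 adjusted p = 0.0244), Hnrnpr (0.0479), Hnrnpa2b1 (0.014) and Hnrnph1 (0.0273). Over the 12 alternatives their adjusted p-values reached 0.560, 0.549, 0.546 and 0.907. Srsf10 was called as higher without siUpf1 replicate 2 (adjusted p = 0.0222, over a range of 0.0183 to 0.511).

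To compare levels between genes, counts were divided by the length of a gene's exons and by the assigned reads of the library (RPKM). That length covers the exons of all annotated isoforms together, so the order of genes depends on the annotation and on the isoforms that the cells use. Among SR/Tra2 genes, Srsf2 had the highest RPKM in both groups, at 135 RPKM in siCtl and 114 ± 1.09 RPKM in siUpf1. Srsf7 (73.8 to 78.5 RPKM) and Srsf6 (73.3 to 74.2 RPKM) followed in siCtl with overlapping ranges, and then came Srsf1 (67.6 to 70.0 RPKM) and Srsf5 (64.2 to 65.7 RPKM). In siUpf1 the second place was taken by Srsf1, at 67.2 ± 3.19 RPKM, while Srsf6, Srsf5 and Srsf7 were at 60.4 ± 2.50, 58.0 ± 2.50 and 57.4 ± 1.56 RPKM, which do not differ beyond their spread. Srsf9, Srsf4, Srsf10, Srsf3 and Srsf11 were between 27.9 and 50.4 RPKM in siCtl. Tra2a, at 23.0 RPKM, was above Tra2b, at 16.4 RPKM, in siCtl, and the gap was wider in siUpf1, at 26.8 ± 1.53 and 11.9 ± 0.402 RPKM. Srsf12 was at 0.049 RPKM in siCtl and 0.036 RPKM in siUpf1.

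Hnrnpab and Hnrnpa1 had the highest RPKM of the hnRNP genes, at 287 and 282 RPKM in siCtl and 252 ± 3.12 and 234 ± 7.04 RPKM in siUpf1. Hnrnpa2b1 followed at 200 and 192 ± 10.5 RPKM. This order depends on the length used. The exons of Hnrnpa2b1 cover 6584 nt over all isoforms, but its representative protein-coding transcript has 1662 nt. The same lengths are 2782 and 2370 nt for Hnrnpab and 3153 and 1918 nt for Hnrnpa1. Hnrnph1, Hnrnpk and Hnrnpu were between 105 and 118 RPKM in siCtl. Hnrnpdl, Hnrnpa3 and Hnrnpc, at 76.1 to 78.5 RPKM, did not differ beyond their spread in siCtl, and Hnrnpl, Hnrnpa0, Hnrnpm, Hnrnpf, Hnrnpd and Hnrnph3 came next, from 62.5 down to 21.8 RPKM. Hnrnpul2, Hnrnph2 and Hnrnpul1 were at 18.1, 17.9 and 17.6 RPKM in siCtl, where the range of Hnrnph2 overlapped those of both others. In siUpf1 they were at 22.8 ± 0.852, 14.0 ± 1.04 and 23.2 ± 0.859 RPKM, so that Hnrnph2 stood apart below the 2 U-like genes. Hnrnpr (12.2 RPKM) and Hnrnpll (8.95 RPKM) were the lowest. The exons of Hnrnpr span 22199 nt in the annotation, which lowers its RPKM if N2A cells use a shorter form.

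**Figure D3:**
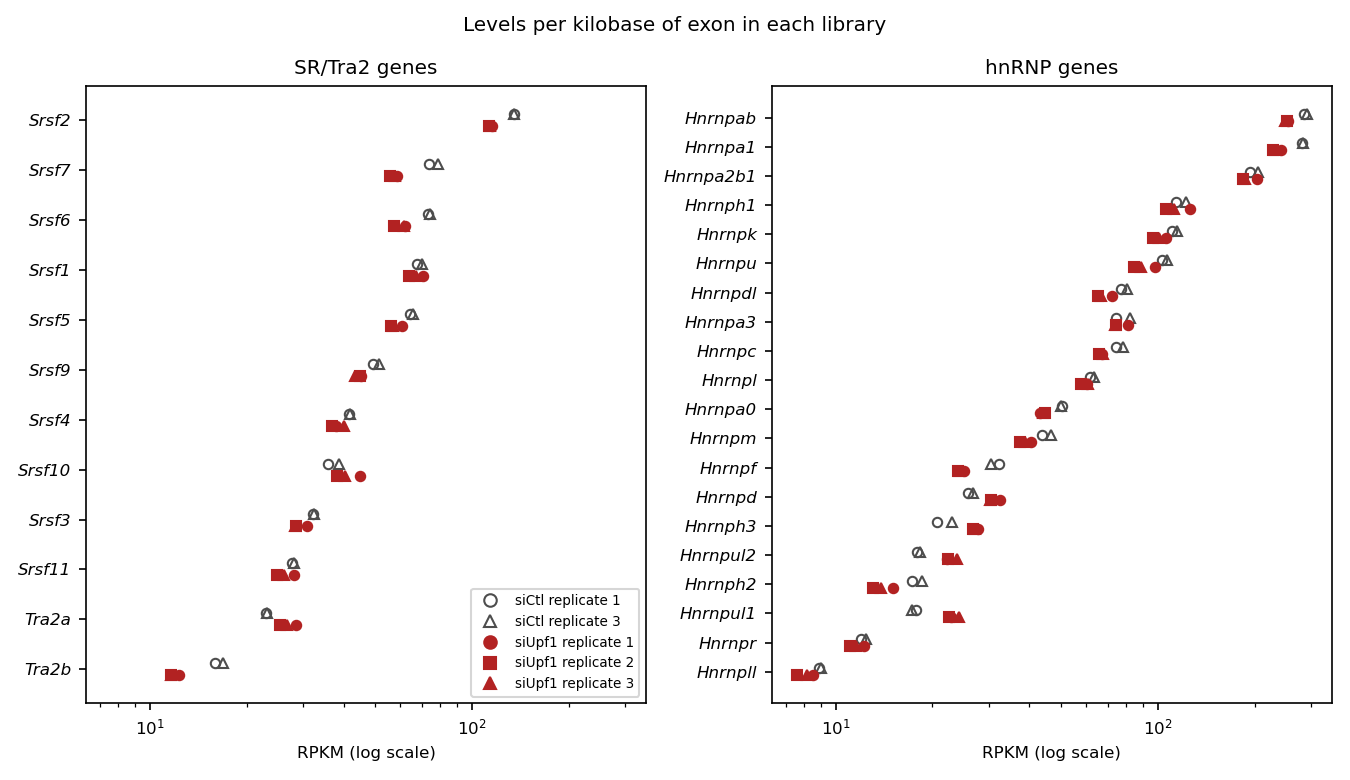
Level of each gene in RPKM on a log axis, for siCtl and siUpf1, with a point for each library and genes ordered by their level in siCtl within each subgroup. The hnRNP genes range from 8.95 RPKM (Hnrnpll) to 287 RPKM (Hnrnpab) and the tested SR/Tra2 genes from 16.4 RPKM (Tra2b) to 135 RPKM (Srsf2) in siCtl.

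The subgroups took a smaller share of the library after UPF1-KD. The 13 SR/Tra2 genes together held 0.293% and 0.301% of assigned reads in siCtl and 0.281%, 0.259% and 0.268% in siUpf1. The 20 hnRNP genes held 0.856% and 0.890% in siCtl and 0.844%, 0.775% and 0.797% in siUpf1. The groups did not overlap in either sum, and siUpf1 replicate 1 lay closest to siCtl in both.

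Ratios between close relatives, which do not depend on how libraries are scaled, showed where the balance within a family moved. For 13 of 14 pairs, all but Srsf10 with Srsf12, the log2 ratio of normalised counts was computed in each library. The widest shift was that of Tra2a over Tra2b. The log2 ratio was 0.12 and 0.04 in siCtl, which means near-equal counts, and 0.79, 0.71 and 0.79 in siUpf1, a difference of 0.68. Hnrnpd over Hnrnpdl came next, with -0.97 and -0.97 in siCtl and -0.55, -0.49 and -0.54 in siUpf1, a difference of 0.45. The ratio of Hnrnpab over Hnrnpd shifted by -0.43, that of Hnrnph1 over Hnrnph2 by 0.32, that of Hnrnpf over Hnrnph1 by -0.32 and that of Srsf3 over Srsf7 by 0.26.

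The ratio of Hnrnpul1 over Hnrnpul2, genes that both rose, went from 0.28 and 0.20 to 0.32, 0.30 and 0.31, a difference of 0.07. That difference was 0.109 without siCtl replicate 1 and 0.027 without siCtl replicate 3. The 6 remaining pairs shifted by 0.08 to 0.23 in size. The groups did not overlap in any of the 13 ratios, several of which share a gene. No share over other pairs of genes was computed. For single genes, the groups did not overlap in 80.6% of the protein-coding genes with high counts. With 2 libraries against 3, a two-sided exact permutation test cannot go below p = 0.2, and it gave p = 0.2 for each of the 13 pairs, also after Benjamini-Hochberg adjustment, so that none of these shifts reached significance in that test.

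**Figure D4:**
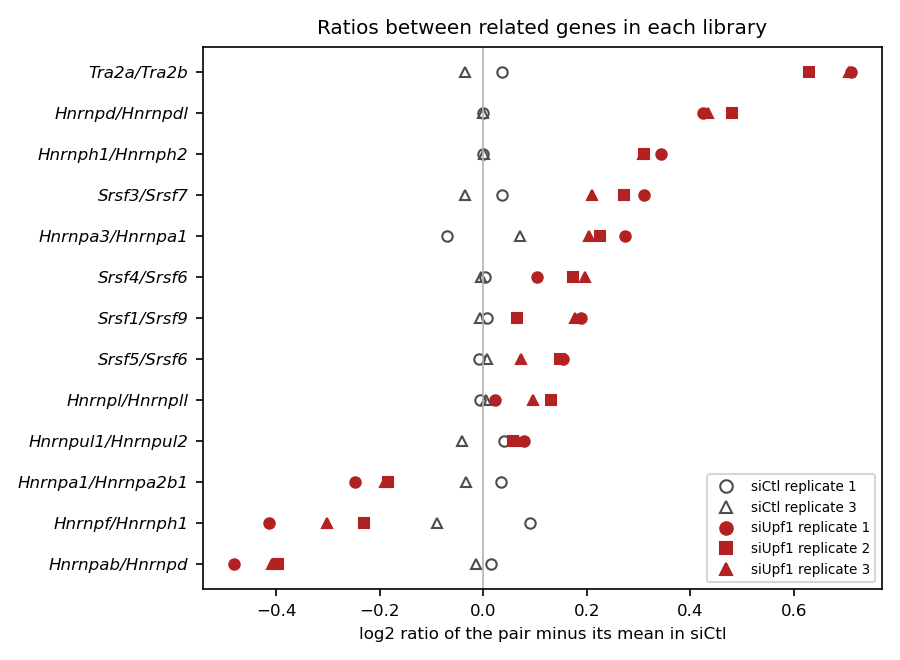
Log2 ratio of normalised counts between the 2 genes of each pair, less the mean of the siCtl libraries, in each library (open symbols siCtl, filled symbols siUpf1). Tra2a/Tra2b lies farthest from 0, at a difference of 0.68, and Hnrnpul1/Hnrnpul2 and Hnrnpl/Hnrnpll lie close to 0, at 0.07 and 0.08.

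Calls were compared between genes with and without an annotated NMD isoform as a description. Of the 21 SR/Tra2 and hnRNP genes with one, 3 were higher and 13 lower, with a median log2 fold change of -0.17. Of the 11 without one, 2 were higher and 6 lower, with a median of -0.21. The 12 genes with an internal NMD-isoform exon absent from protein-coding isoforms had 2 higher genes (Tra2a and Hnrnpd) and 8 lower, with a median of -0.16. The other 20 had 3 higher and 11 lower, with a median of -0.18. Among protein-coding genes with high counts, 518 of the 1884 with an NMD isoform were higher and 647 lower, 1220 of the 3795 without one were higher and 1317 lower, and both medians were -0.02. Tra2b and Tra2a, whose NMD exons are printed above, thus changed in opposite directions at the level of the gene.

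The length and GC trend was looked at because the representative transcripts of the 32 genes had a median GC content of 44.8%, compared with 50.8% for tested protein-coding genes. With that trend taken out, the median log2 fold change was -0.13 for SR/Tra2 and -0.14 for hnRNP genes. Srsf1 (DESeq2 adjusted p = 0.00102) and Hnrnpr (3.93e-14) then passed the test as lower and Srsf10 (0.0183) as higher. The log2 fold change of Hnrnpr went from -0.09 to -0.37. Its representative transcript has 21452 nt, beside a median of 2677 nt for the 32 genes, and the size of its adjustment depends on that annotated length.

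A siRNA can also lower mRNAs whose 3′ UTR matches its seed, bases 2 to 8 counted from its 5′ end. The Upf1 siRNA sequence in the labels was treated as the sense strand. Its reverse complement, the antisense strand, would then be the one that pairs with Upf1 mRNA. Neither was matched to Upf1 mRNA here. Both are shown with the seed in capitals, because 9 of the 32 genes hold a match to one of them.
Upf1 siRNA as given in the labels: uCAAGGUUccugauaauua
antisense strand: uAAUUAUCaggaaccuuga

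The 7-mer AACCTTG, complementary to the first seed, that of the sense strand, was found in the representative 3′ UTR of 6 of the 32 genes (18.8%). It was found in 9.77% of tested protein-coding genes and in 10.5% of those with high counts. The 7-mer GATAATT, complementary to the second, was found in 4 (12.5%), compared with 7.63% and 8.61%. Longer 3′ UTRs hold more matches by chance. Their median length was 1114.5 nt in the 32 genes, 984.5 nt in tested protein-coding genes and 1176 nt in those with high counts. The 3′ UTR of Hnrnpr, of 19419 nt, held 4 matches of the first kind and 2 of the second. Only the mRNA strand was searched, and the 7-mers do not overlap each other. The match of the first kind is shown for the SR genes that hold one, with 10 bases on either side and the 7-mer in capitals.
Tra2b, chr16:22246006-22246012, minus strand: gggatcatcaAACCTTGtcatggatga
Srsf7, chr17:80200783-80200789, minus strand: tttggaacaaAACCTTGtaaaccagct
Srsf1, chr11:88050240-88050246, plus strand: tgctttttaaAACCTTGgcaattgtgg

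Tra2b and Srsf7 had the lowest fold changes of the SR/Tra2 subgroup, whereas Srsf1 did not pass the test. Hnrnpa1, Hnrnph1 and Hnrnpr also held this 7-mer, and Srsf6, Srsf10, Hnrnpk and Hnrnpr held the other. Of the 9 genes with either match, 5 were lower and none higher by DESeq2, and of the 23 with neither, 14 were lower and 5 higher. The median log2 fold change was -0.17 in both sets. By subgroup, it was -0.31 with a match and -0.16 without in the 12 SR/Tra2 genes, and -0.13 with and -0.19 without in the 20 hnRNP genes. Of the protein-coding genes with high counts, 970 held either match, of which 270 were higher and 392 lower with a median of -0.06, and 4709 held neither, of which 1468 were higher and 1572 lower with a median of -0.01. Those with the first 7-mer had a median of -0.11, beside -0.19 for the 6 SR/Tra2 and hnRNP genes that held it. Those with the second 7-mer had a median of -0.002, beside -0.13 for the 4 SR/Tra2 and hnRNP genes that held it. The part of these matches in the result was not tested.

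Genes that act on or with these proteins were examined as well. SR proteins are phosphorylated by the SRPK, CLK and DYRK kinases and PRPF4B and carried into the nucleus by transportin-SR, the product of Tnpo3. Of 12 listed genes, 10 were tested, of which 4 fell, 1 rose and 5 did not pass the test, with a median log2 fold change of -0.09. The share called was 50%, beside 44.9% of all genes tested and 65.2% of protein-coding genes with high counts. Tnpo3 had 7106 and 7143 normalised counts in siCtl and 5529, 5546 and 5459 in siUpf1 (log2 fold change -0.37, DESeq2 adjusted p = 1.43e-16). The kinase genes Dyrk1b (-0.65), Clk1 (-0.24) and Prpf4b (-0.19) also fell on the log2 scale and Srpk2 rose (0.25). Dyrk1a and Srpk3 were listed at 0 in every library. A count of 0 can also arise where reads cannot be assigned to 1 gene, which was not examined, so it does not show that a gene is silent.

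Coactivators and other SR-related proteins showed no common direction. Of 24 tested, 8 fell, 6 rose and 10 did not pass the test, with a median log2 fold change of -0.03. The share called was 58.3%, between those same shares. The lowest were Bclaf1 (-0.53), Rsrp1 (-0.44) and Srrm2 (-0.42), which encodes a core scaffold of nuclear speckles. The highest were Srrm4 (0.59), a neuronal microexon regulator, Rnps1 (0.32), a peripheral component of the exon junction complex, and Srrm3 (0.28), a relative of Srrm4. Srrm4 had 1567 and 1386 normalised counts in siCtl and 2085, 2137 and 2456 in siUpf1 (DESeq2 adjusted p = 1.68e-12).

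Of 12 tested hnRNP genes that carry other symbols, 6 fell, 2 rose and 4 did not pass the test, with a median log2 fold change of -0.13. The share called was 66.7%, near the 65.2% of protein-coding genes with high counts. Ptbp1, the polypyrimidine tract-binding protein also called hnRNP I, had 18338 and 18727 normalised counts in siCtl and 13128, 13789 and 13886 in siUpf1 (log2 fold change -0.45, SE 0.041, DESeq2 adjusted p = 1.92e-26). Pcbp1 (-0.39) and Rbmx (-0.37) followed, Raly (-0.13) was the least changed of the genes that fell, and Cirbp (0.27) and Pcbp3 (0.17) rose.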

How the data were processed

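The deposited table gave raw counts of reads for each gene. Per the labels and the study's methods, the authors mapped reads to GRCm38.p6 with STAR (2.7.0f) and counted them over exons by strand with featureCounts (Subread 1.6.4), without normalisation or pooling. All 5 columns were matched to a labelled library. DESeq2's Wald test (1.42.0, R 4.3.3) compared siUpf1 with siCtl over the whole table on the group alone. Size factors were medians of ratios, genes of low mean were left out by independent filtering, and genes were called at a Benjamini-Hochberg adjusted p under 0.05. edgeR (4.0.16) was an alternative. The script was tested on simulated data. Annotation, exon lengths and sequences came from GENCODE M21, which held 99.8% of the gene identifiers. The study counted with later GENCODE releases, so lengths, isoforms and overlaps can differ from those behind the counts. Gene positions are on GRCm38. Every SR/Tra2 and hnRNP gene is named. Values per library are given for the 3 called genes with the lowest and the 3 with the highest fold change of each subgroup and for both Tra2 genes, and of each related list the same numbers of called genes are named. The values of Srsf10 in 2 libraries were added after they were seen. Alternatives were TMM and total-count scaling, a minimum of 10 counts in 2 libraries, no filter, replicate number as a block, removal of a length and GC trend, and each library left out. Members, lists and tests were chosen with earlier results of these data known. PCR duplicates could not be recognised in counts. One marker of the neuroblastoma list is not reported here.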

Additional observations from a re-analysis of the deposited data

How the results depend on the processing

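Of 384 values (32 genes under 12 alternatives), 349 kept their direction and side of the threshold, 21 lost the call, 10 gained one and 4 changed sign. The sign changes were those of Hnrnpa2b1 (log2 fold change 0.029), Hnrnph1 (0.0074) and Hnrnpa3 (0.056) once the length and GC trend was taken out, and of Hnrnpa3 without siCtl replicate 3 (0.012, with -0.124 as the lowest value with a library left out), none of them called in these fits. Same-numbered libraries did not deviate together from their group means (r = -0.086 and -0.075 over 11898 genes). With 2 siCtl libraries, the deviations of one mirror those of the other, so the 2 values are not independent. They do not settle whether the libraries were made in pairs. A fit with the number as a replicate block called 1957 genes higher and 1962 lower, compared with 3341 and 3481. No siCtl library is numbered 2, so siUpf1 replicate 2 forms a block alone and adds nothing to the group comparison. The fold changes of the block fit thus rest on replicates 1 and 3. In the same block fit, SR/Tra2 genes had 0 higher and 4 lower, SR kinases and import genes 0 higher and 1 lower, coactivators 1 higher and hnRNPs under other names 0 higher. The block fit lost the calls of Srsf3, Srsf4, Srsf5, Srsf9, Tra2a, Hnrnpd, Hnrnpk and Hnrnpll, with adjusted p from 0.0638 (Tra2a) to 0.324 (Hnrnpll). SR/Tra2 genes had 2 higher with edgeR and without the length and GC trend, and 1 to 2 with a library left out. hnRNPs under other names had 1 to 2 higher with a library left out. Hnrnpl was called with TMM (DESeq2 adjusted p = 0.049, range 0.049 to 0.486) and Srsf10 with edgeR (adjusted p = 0.0424). The counts of calls over all genes with edgeR were 4220 higher and 4172 lower. With total-count scaling 52.7% of calls were higher. Omitting a siCtl library leaves 1, whose spread is assumed to equal that of siUpf1. The cause of these changes was not tested.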
